A study of Rattus norvegicus with 96 samples.

Results

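Nicotinic acetylcholine receptors are the ion channels that nicotine opens, and 4 of their subunit genes are described here in the brain of rats given nicotine (NIC) or saline (SAL): Chrna3 (ENSRNOG00000013829, the alpha3 subunit), Chrnb4 (ENSRNOG00000014427, beta4), Chrnb2 (ENSRNOG00000020778, beta2) and Chrna1 (ENSRNOG00000018286, alpha1). They were chosen by name as members of the family, and they are 4 of the 17637 genes in the count table and 4 of the 16879 genes that passed the filter on low counts. All 4 passed it. The other nicotinic subunits (12 symbols, among them Chrna4, Chrna5, Chrna6 and Chrna7) could not be matched to a row by symbol and were not analysed here. Symbols came from the study's own gene tables, which mostly list genes called different between NIC and SAL in these same samples or in a self-administration experiment not analysed here. Which subunits and which genes of the lists below could be matched therefore depended in part on the outcome, and their counts for NIC against SAL are descriptions that cannot be read against the share of all genes.

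Each receptor is a ring of 5 subunits around a cation channel, and the subunits in the ring set its affinity for nicotine and its speed. The alpha3 and beta4 subunits assemble in autonomic ganglia and in the medial habenula, an epithalamic nucleus known for limiting nicotine intake. The beta2 subunit joins alpha4 and alpha6 in the high-affinity receptors of midbrain dopamine neurons, through which nicotine raises dopamine release in the nucleus accumbens (NAc). The alpha1 subunit belongs to the receptor of the neuromuscular junction and is known from skeletal muscle rather than from brain.

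The data were bulk RNA-seq libraries of the ventral tegmental area (VTA, the site of the dopamine neurons), the NAc core and the NAc shell from F1 rats of a cross between the inbred strains F344 and BN. Rats received NIC at 0.4 mg/kg or SAL at 1.0 ml/kg once a day for 4 days in a test of nicotine sensitization, and the tissue was taken on day 17 with no test injection. Both directions of the cross were used in the study, but the labels do not give the direction for each rat. There were 32 rats (16 male, 16 female), and 94 of the 96 libraries entered the analysis, in 12 groups of sex, region and treatment with 7 or 8 rats each (31 VTA, 31 NAc core and 32 NAc shell libraries). All rats, the SAL rats included, were such F1 animals, and no gene was targeted. NIC and SAL rats of a sex differed in treatment and largely also in library preparation batch, as set out below.

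Depth ranged from 15868529 to 27736905 counts per library, and levels are given as CPM, the counts scaled to a common library size by TMM normalization. At this depth Chrnb4 was close to the limit in the NAc: it had fewer than 10 counts in 19 of 31 NAc core and 17 of 32 NAc shell libraries. In 1 NAc core library (female NIC 8) Chrnb4 had 0 of 20955583 counts, which allows a level of up to 0.143 CPM (3 counts, counting error only). Chrna3 had 73 to 1017 counts in the VTA but 8 to 49 in NAc core and 6 to 45 in NAc shell. Chrnb2 (147 counts or more) and Chrna1 (35 counts or more) were well counted in every library.

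Several libraries departed in marker levels from the others of their labelled region. In female VTA NIC 2 the summed level of 6 dopaminergic neuron markers was 98.9 CPM against 984 to 2704 CPM in the other 30 VTA libraries. Th, the rate-limiting enzyme of dopamine synthesis, was at 17.9 CPM there against 316 to 894 CPM, and Slc6a3, the dopamine transporter, at 22.6 CPM against 402 to 1197 CPM. Of the 6, Nr4a2, a transcription factor of dopamine neurons, was not lowered (31.2 CPM against 16.2 to 45.9 CPM). The same library was the highest of the 31 in the summed levels of 6 choroid plexus markers (2646 CPM against 8.27 to 889 CPM) and of 3 medial habenula markers (48.8 CPM against 11.8 to 37.9 CPM). Of these, Ttr, the transthyretin of choroid plexus, reached 2553 CPM, and Tac3, a neuropeptide precursor of the habenula, 25.9 CPM. Wif1, another of the 3 habenula markers, was at 9.20 CPM, and 17 of the other 30 libraries were higher. The sum of the 3 was higher in the NAc, at 32.6 to 68.7 CPM in core (median 44.9) and 30.7 to 67.4 CPM in shell (median 51.8). The 48.8 CPM of female VTA NIC 2 lay within those ranges, so the sum was not particular to habenula here. The sum of 2 cortical projection neuron markers in that library was also the highest of the 31 VTA libraries (1311 CPM against a median of 261.5 CPM), with Nrgn, neurogranin, at 1169 CPM against 82.3 to 497 CPM in the other 30. None of the markers named was at 0 in that library. The main results that rest on it are given with and without it. In the 2 NAc libraries of SAL rat male 1 the sum of 8 striatal projection neuron markers was 311 CPM (shell) and 371 CPM (core) against 726 to 5480 CPM in the other 61 NAc libraries. Drd1, the D1 dopamine receptor, was at 5.09 and 9.28 CPM in them against 22.7 to 157 CPM. In rat male 9 (NIC) the dopaminergic sum was 32.6 CPM in core and 60.6 CPM in shell, against group medians of 71.1 and 27.9 CPM. Its cortical sum was 1249 and 2168 CPM, against 2572 and 1380 CPM. Its striatal sums (3547 and 1672 CPM) were at neither end of those groups. Chrna3 in that rat was at 1.07 CPM in core and 2.18 CPM in shell, the latter the highest of the male NIC shell libraries.

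**Figure D1:**
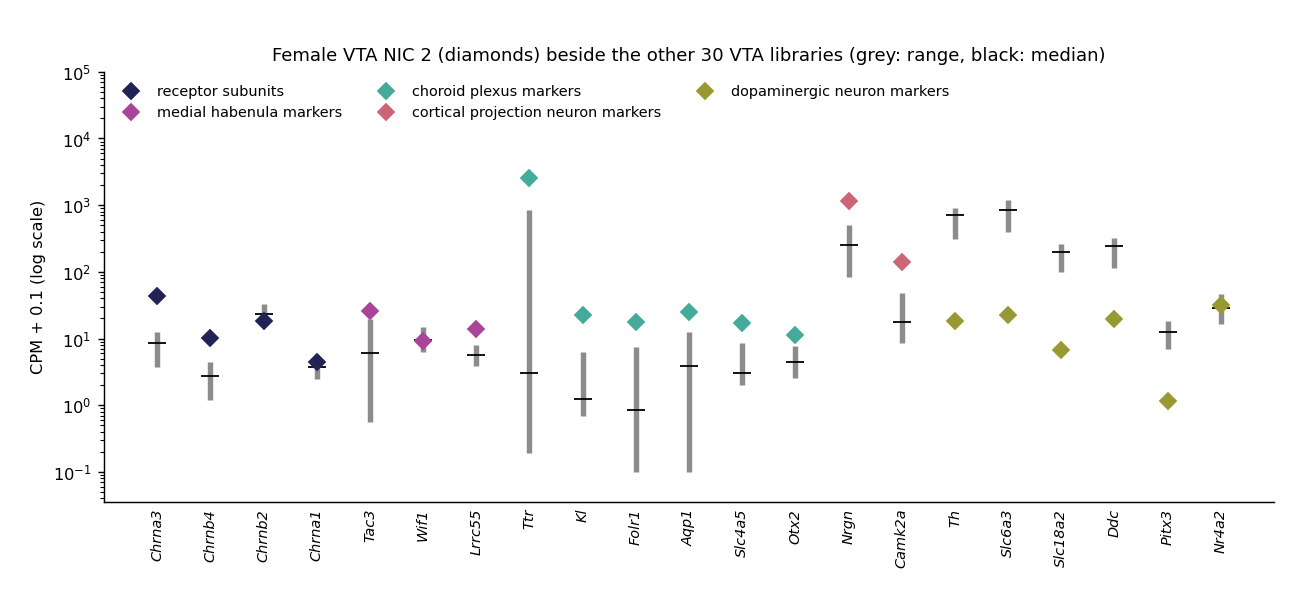
Level (CPM + 0.1, log scale) of the 4 receptor subunits and of marker genes in female VTA NIC 2 (diamonds, coloured by list) beside the range (grey bars) and median (black ticks) of the other 30 VTA libraries. Chrna3 (43.1 CPM) and Chrnb4 (10.1 CPM) lay above that range with Tac3 and Ttr, while Th and Slc6a3 lay below it.

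The 250 bases before the start of 3 of the genes are shown so that the promoter of a VTA transcript (Chrna3) can be read beside those of a transcript found in every region (Chrnb2) and of a muscle subunit (Chrna1). The sequences are those of RefSeq on build GRCr8, which is not the build the reads were mapped to, and all lie on the minus strand. Chrna3 is at chr8:64311252-64311501, between Chrna5 and Chrnb4 among the protein-coding neighbours, Chrnb2 at chr2:177487307-177487556 and Chrna1 at chr3:78877354-78877603. Capitals mark the GC box (GGGCGG) and the E-box hexamers (CAGCTG, with its relatives CAGGTG and, in Chrna3, CACGTG), searched on both strands with no overlap between matches.
Chrna3: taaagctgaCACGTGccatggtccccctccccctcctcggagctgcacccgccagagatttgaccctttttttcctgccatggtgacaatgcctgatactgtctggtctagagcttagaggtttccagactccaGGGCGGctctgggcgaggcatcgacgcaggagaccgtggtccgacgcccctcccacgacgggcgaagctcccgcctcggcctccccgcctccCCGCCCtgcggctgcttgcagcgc
Chrnb2: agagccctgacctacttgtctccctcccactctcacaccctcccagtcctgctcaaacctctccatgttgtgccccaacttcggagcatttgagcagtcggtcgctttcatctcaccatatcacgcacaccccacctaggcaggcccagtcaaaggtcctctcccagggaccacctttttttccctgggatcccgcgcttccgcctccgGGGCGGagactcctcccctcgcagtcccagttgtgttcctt
Chrna1: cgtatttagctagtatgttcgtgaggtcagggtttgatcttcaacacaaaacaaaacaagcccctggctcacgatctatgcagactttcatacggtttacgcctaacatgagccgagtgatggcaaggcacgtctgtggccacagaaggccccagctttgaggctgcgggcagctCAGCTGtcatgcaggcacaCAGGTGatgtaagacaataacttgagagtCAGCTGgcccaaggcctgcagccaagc

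The Chrna3 window held 2 GC boxes, 116 bases and, on the reverse strand, 24 bases before the start, and the Chrnb2 window 1 at 41 bases. The window of Chrnb4 (chr8:64333110-64333359), of which 210 bases lie within the annotated span of the Chrnb4 gene itself, held 1 GC box at 79 bases and a CAGGTG at 56 bases. The window of Chrna1 held no GC box but 2 CAGCTG hexamers (75 and 27 bases) and a CAGGTG (56 bases). GGGCGG occurred in 30.5% of 33469 rat promoter windows of the same length, CAGCTG in 12.0%, CAGGTG in 15.9% and CACGTG in 5.59%. None of the 4 windows held TATAAA (12.9% of windows) or CCAAT (34.0%). Their GC content was 65.2% (Chrna3), 62.0% (Chrnb4), 59.6% (Chrnb2) and 52.4% (Chrna1), against a median of 51.2% over all windows.

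Chrna3 and Chrnb4 were VTA transcripts in these libraries, Chrnb2 was found throughout with its highest level in the VTA, and Chrna1 was nearly even. Chrna3 ranged from 3.63 to 43.1 CPM in the VTA (median 8.49), from 0.509 to 2.66 CPM in NAc core (median 1.59) and from 0.294 to 2.38 CPM in NAc shell (median 1.02). Every VTA library lay above every NAc library, with or without female VTA NIC 2, whose exclusion lowers the VTA maximum to 12.2 CPM. Of all genes tested, 9.89% did not overlap between VTA and NAc core libraries and 6.58% did not between VTA and NAc shell. Chrna3 was higher in the VTA than in the NAc core of the same animal in 30 of 30 rats, and higher than in the NAc shell in 31 of 31.

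Chrnb4, whose subunit pairs with alpha3, ranged from 1.11 to 10.1 CPM in the VTA (median 2.79), from 0 to 1.28 CPM in NAc core (median 0.426) and from 0.0968 to 2.37 CPM in NAc shell (median 0.435). Of the 31 VTA libraries, 30 lay above every NAc core library, but only 18 lay above every NAc shell library. Chrnb4 was nevertheless higher in the VTA than in either NAc part of the same animal in all rats with both libraries (30 of 30 and 31 of 31). Without female VTA NIC 2 the highest VTA value was 4.42 CPM.

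Chrnb2 ranged from 15.4 to 33.3 CPM in the VTA (median 23.1), from 10.2 to 21.0 CPM in NAc core (median 14.8) and from 8.13 to 29.7 CPM in NAc shell (median 15.0). The regions overlapped, and the VTA exceeded the NAc core of the same rat in 29 of 30 rats and the NAc shell in 29 of 31. Chrna1 ranged from 2.41 to 5.01 CPM in the VTA (median 3.66), from 1.98 to 5.79 CPM in NAc core (median 3.74) and from 2.92 to 6.09 CPM in NAc shell (median 4.47). It was higher in the VTA than in the core in 10 of 30 rats and than in the shell in 8 of 31. Of 7 skeletal muscle markers, only Acta1 and Des could be matched to rows, so a contribution of muscle was not tested.

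**Figure D2:**
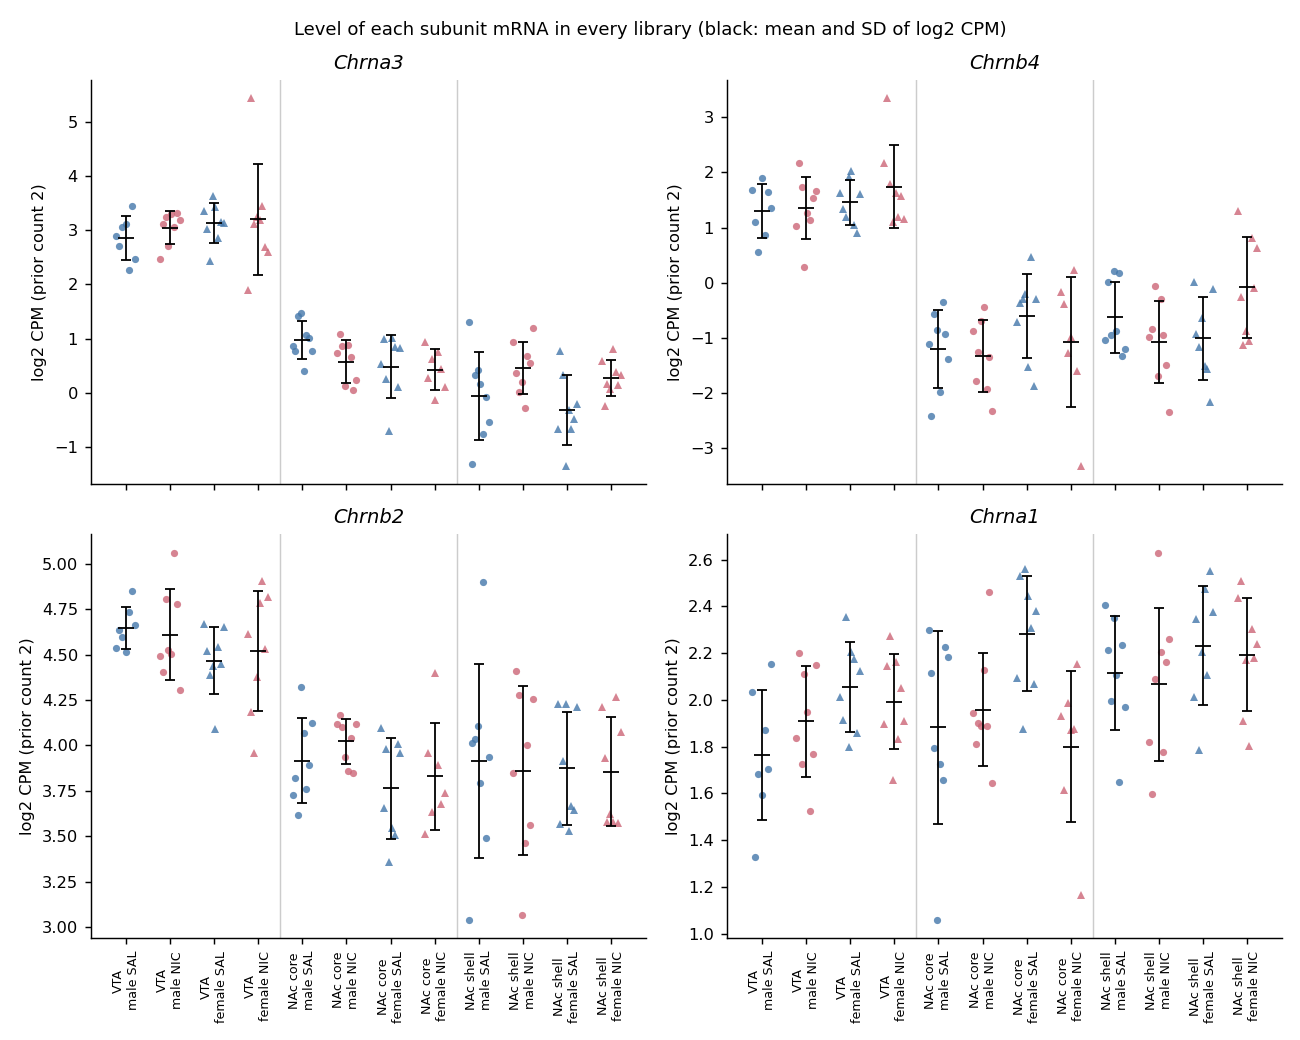
Level of Chrna3, Chrnb4, Chrnb2 and Chrna1 (log2 CPM, prior count 2) in each of the 94 libraries, by region, sex and treatment (circles male, triangles female, blue SAL, red NIC), with the mean and SD of each group of 7 or 8 rats in black. Chrna3 and Chrnb4 sit higher in the 4 VTA groups, Chrnb2 is moderately higher there, and Chrna1 overlaps across all 3 regions.

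The differences between regions were tested in 1 fit over all 94 libraries by edgeR's quasi-likelihood test, with Benjamini-Hochberg adjusted p-values over 16879 genes, and a call means an adjusted p under 0.05. Chrna3 was 6.10-fold higher in mean CPM in VTA than in NAc core (log2 difference 2.59, SE 0.152, adjusted p = 1.57e-28) and 8.65-fold higher than in NAc shell (3.10, SE 0.154, adjusted p = 4.03e-33). For Chrnb4 the mean was 6.34-fold higher in VTA than in NAc core (log2 difference 2.67, SE 0.207, adjusted p = 3.97e-21) and 4.62-fold higher than in NAc shell (2.25, SE 0.198, adjusted p = 2.68e-18). Without female VTA NIC 2 the log2 differences were 2.43 and 2.94 for Chrna3 and 2.57 and 2.15 for Chrnb4.

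The Chrnb2 mean was 1.60-fold higher in VTA than in NAc core (log2 difference 0.68, SE 0.0778, adjusted p = 4.86e-13) and 1.57-fold higher than in NAc shell (0.65, SE 0.0769, adjusted p = 1.61e-12). Chrna1 was lower in VTA than in NAc shell, by 0.23 on the log2 scale (difference -0.23, SE 0.0701, adjusted p = 0.00182), and its difference from NAc core was not past the threshold (-0.06, SE 0.0711, adjusted p = 0.400). Thus 3 of the 4 genes were called in VTA against NAc core and all 4 in VTA against NAc shell, where 81.6% and 80.8% of all genes were called. Over all genes, 41.3% and 40.5% were called higher in the VTA and 40.3% and 40.4% lower. These are bulk tissues, in which fewer cells of a type and less RNA per cell cannot be told apart.

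Between the 2 parts of the NAc, in which 32.3% of genes were called (15.8% higher in the core), Chrna3 was the only one of the 4 to pass. It was higher in the core, with a log2 difference of 0.51 (SE 0.159, adjusted p = 0.00899), and the core exceeded the shell of the same rat in 22 of 31 rats. Leaving out rat male 1, whose shell library held both the highest Chrna3 level of the shell (2.38 CPM) and the low striatal marker sum, gave 0.59 (adjusted p = 0.00212). Chrnb4 (-0.41, SE 0.217, adjusted p = 0.141), Chrnb2 (-0.03, SE 0.0775, adjusted p = 0.832) and Chrna1 (-0.17, SE 0.0703, adjusted p = 0.0548) did not pass. The order of levels was therefore VTA, core, shell for Chrna3, with each step past the threshold. In Chrnb4 and Chrnb2 the VTA was first and the NAc parts were not separated, and in Chrna1 the shell was first, with neither of its neighbouring steps past the threshold.

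**Figure D3:**
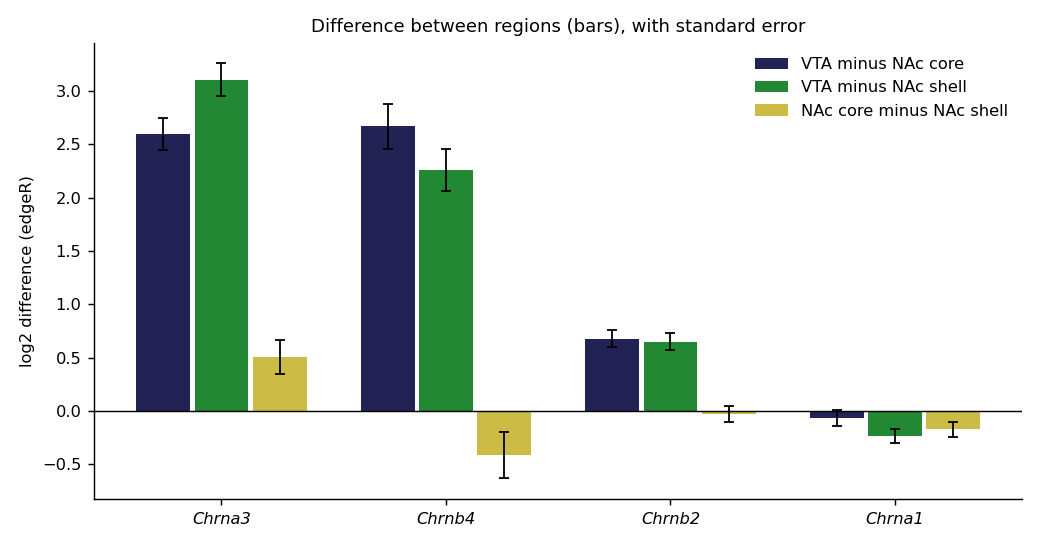
Difference in level between regions for each subunit gene (bars, log2 scale, edgeR estimate with standard error over 94 libraries). The VTA differences of Chrna3 (2.59 and 3.10) and Chrnb4 (2.67 and 2.25) are the tallest, those of Chrnb2 (0.68 and 0.65) are smaller, and those of Chrna1 lie below 0.

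The regional pattern was also present within the library preparation batches. In each of 10 batches the VTA mean exceeded both NAc means for Chrna3, Chrnb4 and Chrnb2. The within-batch difference of VTA from NAc core ranged from 1.76 to 3.15 on the log2 CPM scale for Chrna3, from 1.64 to 2.97 for Chrnb4 and from 0.58 to 0.89 for Chrnb2. Without female VTA NIC 2, which left 1 VTA library in batch G, the VTA remained higher in all 10 batches for these 3 genes, but batch G then set the lowest Chrna3 difference from the core (0.97) and the highest for Chrnb2 (1.10). The higher core level of Chrna3 was present in 9 of 10 batches (range -0.28 to 1.04), and the lower VTA level of Chrna1 relative to shell in 9 of 10 (range -0.56 to 0.16), the VTA being the higher in 1.

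Whether earlier NIC altered the subunit mRNAs was tested in each sex and region (6 comparisons, 8 against 8 rats, or 7 in male VTA SAL and female NAc core NIC). No gene of the table passed an adjusted p under 0.05 in any of the 6 by edgeR fitted within each sex and region, so 0% of genes were called and none of the 4. With all 12 groups in 1 edgeR fit, 1 gene passed in male VTA, 6 in female VTA and 2 in female NAc shell, and by DESeq2 between 0 and 9 genes passed in a comparison. No setting made a member pass. At an unadjusted p under 0.05 the share of all genes, in the order VTA, core and shell, was 5.62%, 9.83% and 2.46% in males and 9.24%, 6.45% and 10.1% in females. Among the 24 results for the 4 genes, 2 reached an unadjusted p under 0.05, Chrna1 in female NAc core and Chrnb4 in female NAc shell. Both genes could be named only because the study's tables list them for these same comparisons, so their p-values are not independent evidence of a difference.

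Chrna1 in the NAc core of female SAL rats was at 5.11, 4.16, 5.68, 3.57, 5.79, 5.34, 4.85 and 4.09 CPM (4.83 ± 0.808, SD, n = 8). In female NIC rats it was at 3.72, 2.96, 3.86, 3.56, 3.57, 4.35 and 2.14 CPM (3.45 ± 0.710, SD, n = 7). Of the 7 NIC values, 3 lay below the lowest SAL value and 4 within the SAL range. The log2 difference was -0.49 (SE 0.155, adjusted p = 0.732 by edgeR). Permuting treatment over the rats, in an exact two-sided test of log2 CPM, gave p = 0.00497, where 0.000311 is the smallest p that 7 against 8 rats allow. Within batch J, the only batch with both treatments in this group, the NIC mean was 3.25 CPM and the SAL mean 4.64 CPM (2 rats each). In male NAc core Chrna1 was at 3.84 ± 0.722 CPM after NIC and 3.71 ± 0.970 CPM after SAL (SD, n = 8 each; log2 difference 0.04).

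Chrnb4 in the NAc shell of female NIC rats was at 2.37, 0.739, 0.355, 0.445, 0.383, 1.65, 0.831 and 1.45 CPM (1.03 ± 0.725, SD, n = 8), from 7 to 49 counts per library. In female SAL rats it was at 0.828, 0.912, 0.427, 0.346, 0.539, 0.250, 0.237 and 0.123 CPM (0.458 ± 0.285, SD, n = 8), from 2 to 19 counts. Rats 1, 6 and 8 lay above every SAL rat and the other 5 NIC rats within the SAL range. The log2 difference was 1.16 (SE 0.450, adjusted p = 0.466 by edgeR). The exact permutation test, also two-sided, gave p = 0.0452 on log2 CPM and p = 0.0547 on CPM (smallest possible p 0.000155 for 8 against 8).

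Levels of other cell types' genes differed among these libraries. The summed level of 5 matched genes of the cholinergic synapse list (of 7) was 87.7, 106 and 110 CPM in NIC rats 1, 6 and 8, within a range of 33.1 to 110 CPM over the 8 NIC libraries and of 28.3 to 107 CPM over the 8 SAL libraries. It was as high in NIC rat 2 (106 CPM), whose Chrnb4 level of 0.739 CPM lay within the SAL range. In the SAL rats with the most Chrnb4, 9 and 10, it was 107 and 98.3 CPM. Chat, the acetylcholine-synthesizing enzyme of the cholinergic interneurons, was detected in all 16 libraries. The sums of 4 oligodendrocyte markers were also the highest in NIC rats 8, 1 and 6 (18856, 14698 and 12276 CPM, range 7352 to 18856 CPM in NIC and 7060 to 11686 CPM in SAL). The sum of 8 matched striatal projection neuron markers ranged from 1371 to 2942 CPM in NIC and from 2236 to 3067 CPM in SAL libraries, and it was lowest in NIC rats 8 (1371 CPM) and 6 (1455 CPM), with rat 1 at 2144 CPM. All 8 were lower in NIC than in SAL rats at an unadjusted p under 0.05 (median log2 difference -0.35) and none passed the adjusted threshold, a count that is a description because only genes in the study's tables could be named. The part of these markers in the Chrnb4 result was not tested. Within batch J, Chrnb4 was at 1.14 CPM in 2 NIC rats and 0.870 CPM in 2 SAL rats, and without NIC rat 1 the log2 difference of the whole group was 0.86 (adjusted p = 0.652), past no threshold.

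Chrna3, the partner of Chrnb4, had 1.14 ± 0.282 CPM in female NAc shell after NIC and 0.776 ± 0.419 CPM after SAL (SD, n = 8 each), and all 8 NIC rats lay above the SAL median. These are the libraries with the striatal, cholinergic and oligodendrocyte marker levels given for Chrnb4, whose part in the Chrna3 values was not tested either. The log2 difference of 0.55 (SE 0.292) did not pass by edgeR (adjusted p = 0.524), while the exact permutation test gave p = 0.0345 on log2 CPM and p = 0.0628 on CPM. In male NAc core Chrna3 had 1.44 ± 0.399 CPM after NIC and 1.91 ± 0.495 CPM after SAL (log2 difference -0.41, SE 0.208, exact permutation p = 0.0521). In male NAc shell it had 1.34 ± 0.484 and 1.00 ± 0.646 CPM (0.42, SE 0.349, exact permutation p = 0.147), and without SAL rat 1 the log2 difference was 0.73 (adjusted p = 0.861).

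In the VTA, where Chrna3 and Chrnb4 were best counted, neither differed beyond the spread. Chrna3 had 8.31 ± 1.60 CPM in male NIC and 7.35 ± 2.06 CPM in male SAL rats (SD, n = 8 and 7, log2 difference 0.18, SE 0.170, exact permutation p = 0.300). In females it was at 8.61, 10.1, 8.00, 5.30, 12.2, 10.7, 7.12 and 8.81 CPM after SAL, and at 3.63, 43.1, 8.49, 9.41, 9.03, 10.7, 6.32 and 5.92 CPM after NIC. The value of 43.1 CPM belongs to female VTA NIC 2, and the other 7 NIC values lay at or below the SAL maximum. The female difference was 0.44 (SE 0.393, adjusted p = 0.759) with that library and -0.22 (adjusted p = 0.833) without it, so its direction rests on 1 library. Chrnb4 in the VTA had 2.62 ± 0.986 and 2.48 ± 0.819 CPM in male NIC and SAL rats (0.08, SE 0.261, exact permutation p = 0.855), and 3.76 ± 2.68 and 2.74 ± 0.798 CPM in female NIC and SAL rats (0.45, SE 0.310, exact permutation p = 0.389). Without female VTA NIC 2 the female Chrnb4 difference was 0.06 (adjusted p = 0.968 by edgeR).

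The treatment differences of Chrnb2 spanned the least of the 4 genes: its 6 log2 differences lay between -0.08 and 0.09, with exact permutation p-values from 0.272 to 0.896. In male NAc core (0.04) and male NAc shell (-0.03) the Chrna1 difference was smaller than that of Chrnb2. In male VTA Chrnb2 was at 24.6 ± 4.48 CPM after NIC and 25.0 ± 2.07 CPM after SAL, and in female VTA at 23.4 ± 5.07 and 22.2 ± 2.66 CPM (SD, n = 8, or 7 in male SAL). The SE of the 6 Chrnb2 differences was between 0.0946 and 0.227.

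Treatment and preparation batch were nearly one factor. Of the 10 batches, A and B held only male SAL rats, D only male NIC, K only female SAL and G, H and I only female NIC, and both treatments of a sex were together only in C, J and L. With batch as a covariate 12 of the 24 NIC differences changed sign, and no member reached an unadjusted p under 0.05. The Chrna1 difference in female NAc core then was -0.53 (adjusted p = 0.983) and the Chrnb4 difference in female NAc shell 0.40.

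**Figure D4:**
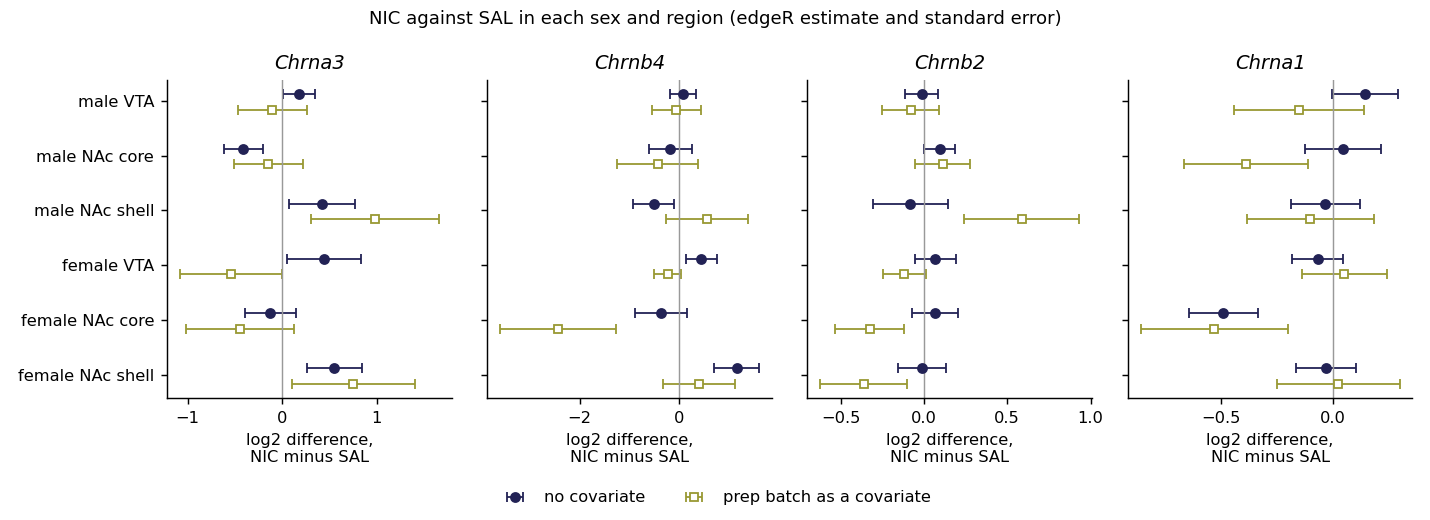
Difference of NIC from SAL rats (log2 scale, edgeR estimate and standard error) for each subunit gene in each sex and region, without a covariate (filled circles) and with preparation batch as a covariate (open squares). Without a covariate only Chrnb4 in female NAc shell (1.16) and Chrna1 in female NAc core (-0.49) have an unadjusted p under 0.05, and with the covariate 12 of the 24 estimates lie on the other side of 0.

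Sexes were compared within each region over both treatments. Sex is one with the box number in the library titles and nearly one with batch (only L held both sexes), so these cannot be told apart. None of the 4 genes was called in any region, where 2.33% (VTA), 32.9% (NAc core) and 21.0% (NAc shell) of genes were. In NAc core the log2 difference of male minus female was -0.68 for Chrnb4 (SE 0.343, adjusted p = 0.130), 0.31 for Chrna3 (SE 0.164, adjusted p = 0.146) and 0.15 for Chrnb2 (SE 0.0839, adjusted p = 0.175). In VTA it was -0.41 for Chrna3 (SE 0.227, adjusted p = 0.321), and -0.07 without female VTA NIC 2. The Chrna1 differences, -0.18 (VTA), -0.13 (core) and -0.12 (shell), were not past the threshold. Chrnb4 in NAc core passed when the library of female NIC 8, at 0 counts, was left out (-0.78, adjusted p = 0.0442). Beside these, 3 cholinergic synapse genes were called in NAc core, all lower in males: Slc18a3, the vesicular acetylcholine transporter (-1.16, adjusted p = 0.000362), Slc5a7, the choline transporter (-1.20, adjusted p = 0.000532), and Chat (-1.09, adjusted p = 0.0031). In NAc shell 4 of the 5 were called, again all lower in males (Slc5a7 -1.16, Chat -1.14, Slc18a3 -1.11 and Bche -0.37), with a median of -1.11 over the 5. All 8 striatal projection neuron markers were called lower in males in NAc core (median -0.71) and none was called in NAc shell (median -0.11). The part of these markers in the member values was not tested.

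The NIC difference itself was compared between the sexes by an interaction term. No gene passed the adjusted threshold in any region by edgeR, and 11.0% (VTA), 8.89% (NAc core) and 8.07% (NAc shell) of genes had an unadjusted p under 0.05. By DESeq2 the counts of adjusted calls were 1, 0 and 2. For Chrna1 in NAc core the male difference exceeded the female one by 0.53 on the log2 scale (SE 0.228, adjusted p = 0.516). For Chrnb4 in NAc shell the male minus female value was -1.66 (SE 0.623, adjusted p = 0.579). In male NAc shell Chrnb4 had 0.427 ± 0.256 CPM after NIC and 0.610 ± 0.328 CPM after SAL (SD, n = 8 each), the opposite order to the females. Without a covariate these 2 interactions had an unadjusted p under 0.05, and the other 10 member interactions did not. With batch as a covariate neither had, and the values were 0.15 (adjusted p = 0.971) for Chrna1 and 0.16 (adjusted p = 0.994) for Chrnb4. Both interactions contain the female differences through which the genes could be named, so their p-values are not independent evidence of a sex difference.

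Whether the members varied together between animals was examined by the correlation of log2 CPM over the libraries of a region (18 relations, 100000-resample permutation p, Benjamini-Hochberg adjusted). Chrna3 and Chrnb4, neighbours on chromosome 8, had r = 0.58 over 31 VTA libraries (permutation p = 0.00405, adjusted 0.0263; Spearman's rho 0.41, adjusted 0.0966). Leaving out female VTA NIC 2 alone gave r = 0.23, and leaving out the 2 libraries farthest from the Chrna3 median, female VTA NIC 2 and female VTA NIC 1, gave r = 0.49. Within males, which do not include either, r was 0.50 (n = 15). Within females it was 0.62 (n = 16) with female VTA NIC 2 and -0.04 (n = 15) without it. Those 15 still include female VTA NIC 1, which had the lowest Chrna3 (3.63 CPM) and the highest Chrnb4 (4.42 CPM) among them. The value for females without both libraries was not computed, so what the female relation rests on was not settled. The correlation of Chrna3 with Chrnb4 was 0.18 over the core libraries (0.41 in males, 0.24 in females), and 0.42 with female NAc core NIC 1, left out of the analysis, added (adjusted permutation p = 0.0663). The dopaminergic, striatal and oligodendrocyte marker sums of that library, given below, lay within the range of the VTA libraries. Over the shell libraries the correlation was -0.14, from -0.56 in males and 0.29 in females. Differences between regions or sexes in these correlations were not tested. A library held a median of 3.02 Chrna3 counts per Chrnb4 count in the VTA, 3.98 in the core and 2.28 in the shell. The ratios of summed counts were 3.20, 3.32 and 1.67. Single libraries ranged up to 5.97, 18.5 and 22.5, and 1 core library with 0 Chrnb4 counts has no ratio.

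Chrnb2 and Chrna1 varied in opposite directions, with r = -0.51 in VTA (permutation p = 0.00358, adjusted 0.0263, rho -0.43, adjusted 0.0966), -0.46 in NAc core (permutation p = 0.00946, adjusted 0.0426, rho -0.46, adjusted 0.0848) and -0.41 in NAc shell (adjusted 0.0663, rho -0.27). Leaving out the 2 libraries farthest from the Chrnb2 median gave -0.37, -0.40 and -0.25. Within males the values were -0.56, -0.51 and -0.71 (n = 15, 16 and 16), and within females -0.38, -0.37 and 0.13 (n = 16, 15 and 16). Batch C in NAc core was the only batch with at least 6 libraries of a region, and r within it was -0.62 (n = 6). Chrnb4 and Chrnb2 had r = 0.49 in NAc shell (permutation p = 0.00439, adjusted 0.0263, rho 0.55, adjusted 0.0252), with 0.45 after leaving out 2 libraries, 0.41 in males and 0.72 in females. In VTA and NAc core the same pair gave -0.35 and -0.25.

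**Figure D5:**
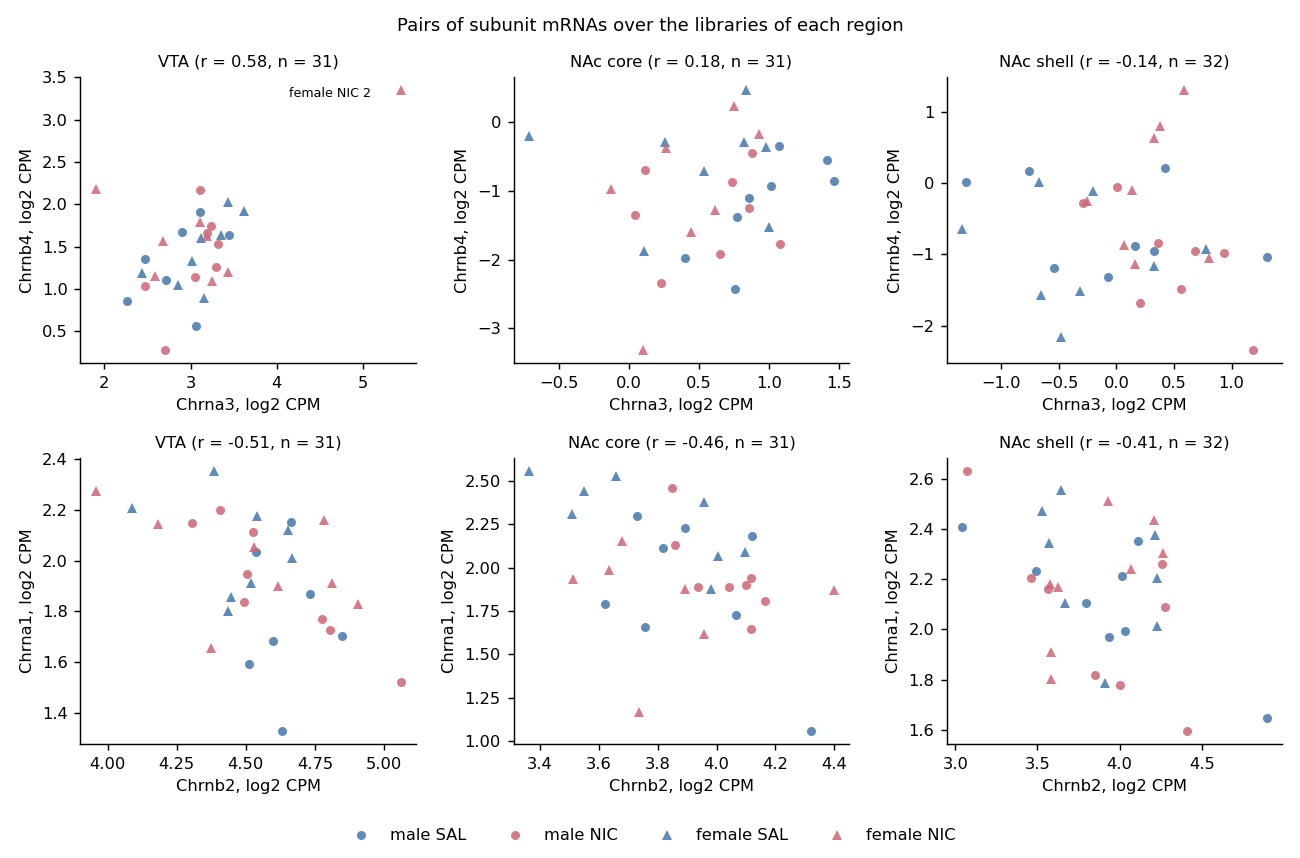
Chrnb4 against Chrna3 (upper row) and Chrna1 against Chrnb2 (lower row), both in log2 CPM, for each library of VTA, NAc core and NAc shell (circles male, triangles female, blue SAL, red NIC; Pearson's r and n above each panel). The Chrna3 and Chrnb4 relation in VTA (r = 0.58) includes female VTA NIC 2 at the upper right, and Chrnb2 and Chrna1 slope downward in each region.

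The genes most like each member were searched among 14452 genes with a mean of at least 1 CPM, and are given as a description. Over the 94 libraries, centred within the 12 groups, Chrna3 was most like Iqgap2 (r = 0.56), Tspan13 (0.48) and Pcdh20 (0.44), and without female VTA NIC 2 most like Syt4 (0.47), with Iqgap2 at 0.40. Over the 12 group means, which include the difference between regions that most genes show, Chrna3 was most like Gbe1 (r = 0.994), Ebf2 (0.991) and Prph (0.990), and Chrnb4 ranked 1732 in that list with r = 0.914. Within groups and without female VTA NIC 2, Gbe1 had r = 0.17 with Chrna3. Chrnb4 was most like Elfn1 (0.45) and Tmx1 (0.44) within groups, and without female VTA NIC 2 most like Epm2aip1 (0.51) and Fundc1 (0.50), neither Elfn1 nor Tmx1 being then among its 5 closest genes. Over the group means it was most like Macrod1 (0.990) and Krt18 (0.988), but Macrod1 had r = -0.06 with it within groups, without female VTA NIC 2. Within groups Chrnb2 was most like Kpna6 (0.84), Usp22 (0.82), Mgat3 (0.81), Pip4k2b (0.80) and Rnf157 (0.80), the closest matches found for any of the 4. Chrna1 was most like Rps28 (0.46), Cchcr1 (0.45), Tm7sf2 (0.44) and Cpt1b (0.43), and Chrnb2 ranked 14422 of 14452 for it (r = -0.42). All these points share libraries, depth and scaling, and genes with no known symbol were left unnamed.

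Genes that act on the receptors or on their ligand were called between regions in both directions, as were most genes. Of 7 matched assembly factors and modulators (of 12 symbols), 2 were higher and 4 lower in VTA than in NAc shell, where 80.8% of all genes were called. Lynx1, a membrane-tethered toxin-like modulator of nicotinic receptors, was higher (log2 difference 0.80, adjusted p = 7.67e-25), as was the chaperone Ric3 (0.22, adjusted p = 1.12e-09). Lypd1 (-1.24), Lypd6 (-1.19), Ly6h (-0.73) and Agrn (-0.64) were lower, and the same 2 and 4 genes passed in the same directions against NAc core (81.6% of all genes). Their median difference was -0.64 against NAc shell and -0.49 against NAc core. Of the 5 cholinergic synapse genes, Slc18a3 (-3.43), Chat (-2.99) and Slc5a7 (-1.67) were lower in VTA than in NAc shell, and Bche, butyrylcholinesterase, was higher (1.07). Of 4 muscarinic receptors, Chrm4 (-3.67) and Chrm1 (-3.53) were lower in VTA than in NAc shell and Chrm2 (1.51) was higher. The median difference from NAc shell was -1.67 for the cholinergic synapse genes and -1.81 for the muscarinic receptors, where the median of all genes was 0.00395.

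In NAc core against NAc shell, where 32.3% of all genes were called, 4 of the 5 cholinergic synapse genes were lower in the core (Chat -0.98, Slc18a3 -0.91, Slc5a7 -0.88 and Colq -0.77), while of the muscarinic receptors Chrm3 was higher (0.66). For NIC against SAL no gene of these lists passed an adjusted p under 0.05 by edgeR. The smallest unadjusted p-values in the VTA were those of Slc5a7 in females (log2 difference 1.29, adjusted p = 0.509), and of Chrm2 (-1.18) and Chat (-1.64) in males, each with an adjusted p of 0.866. Chat in male VTA was at 4.89, 2.23 and 1.29 CPM in SAL rats 8, 2 and 1. It was at 0.184 to 0.457 CPM in the other SAL rats and at 0.218 to 0.619 CPM in NIC rats. In female NAc shell the smallest unadjusted p-values were those of Chrm4 (-0.31) and Lypd6 (0.43), each with an adjusted p of 0.466.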

How the data were processed

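RNA was sequenced from hand-dissected VTA, NAc core and NAc shell of F344 and BN F1 rats. Per the study's methods and the labels, the authors trimmed reads with fastp 0.20.0, quantified them with Salmon 0.12.0 on Rnor version 6 and summed transcripts to genes with tximport, and the deposited table holds estimated counts per gene, given as whole numbers. Strand handling and the treatment of reads shared by paralogs are not given in the sources used here. All 96 columns matched a sample (0 did not). Of these, 2 libraries were left out of the analysis, as in the study's own clustering: female NAc core NIC 1, and the first of a pair of runs of male VTA SAL 5. A library of male VTA SAL 3 was not analysed here.

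Genes with a size-factor-normalized count over 10 in at least 3 libraries were kept (16879). Counts were TMM-scaled and tested with edgeR 4.0.16 (quasi-likelihood, R 4.3.3), with DESeq2 1.42.0 as an alternative; adjusted p-values are Benjamini-Hochberg over all genes tested. NIC was compared with SAL within each sex and region, regions in a fit of all groups, and sexes and the interaction within each region. Members were also tested by exact permutation and correlated by permutation in Python 3.11.15. Log2 CPM used a prior count of 2. The code was tested on simulated data. Symbols were taken from the study's gene tables, which pair 7964 rows with a symbol and mostly list genes called different in its NIC or self-administration comparisons, so the lists hold only genes named there.

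Replicates are separate rats. Samples of a rat in different regions share its number in the labels. The deviations of the same rat's libraries from their group means correlated over 0.1 in 20 of 31 rats for core and shell, 12 of 30 for VTA and core and 12 of 31 for VTA and shell; the rat was used as a block in an alternative.

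Members and lists were chosen with earlier results of these data known. Named were the 4 members; of each list, per comparison, up to 4 genes past the threshold by size, or else the 2 of smallest p; and the 5 genes most like each member, where a symbol is known. Part of these are printed. Alternatives were other size factors, DESeq2, other count filters, all mapped libraries, batch as a covariate, 1 fit of all groups, and each library or rat left out. Results without female VTA NIC 2 were added after seeing the data. Marker lists served to check the labelled regions.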

Additional observations from a re-analysis of the deposited data

Results flagged for a closer look

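Of 48 combinations of gene and group examined for a single library far from the rest, 5 had one, where chance gives about 1 in 20. Female VTA NIC 2 had 43.1 CPM of Chrna3 against a next highest of 10.7 CPM in its group, and 10.1 CPM of Chrnb4 against 4.42 CPM; its marker values are given above. Male NAc shell SAL 1 had 2.38 CPM of Chrna3 against 1.24 CPM, in a library whose summed striatal markers were 311 CPM. For Chrnb2, male NAc shell SAL 6 had 29.7 CPM against 17.2 CPM and female NAc core NIC 5 had 21.0 CPM against 15.4 CPM, and the striatal marker sums of those libraries (2729 and 2776 CPM) were inside the range of the other NAc libraries.

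The NIC difference was not the same in both sexes by the interaction term, at an unadjusted p under 0.05, for Chrna1 in NAc core (0.53, male minus female) and for Chrnb4 in NAc shell (-1.66). Neither passed adjustment over all genes, and both are given above with batch as a covariate.

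In the library of female NAc core NIC 1, which was outside the comparisons, Chrna3 was at 5.41 CPM and Chrnb4 at 3.27 CPM, above the highest NAc core SAL values of 2.66 and 1.28 CPM. Its summed dopaminergic neuron markers were 1047 CPM and its Slc6a3 was 382 CPM, where the 6 markers summed to a median of 69.2 CPM in the 31 NAc core libraries of the analysis. Its striatal sum was 211 CPM, against 371 to 5480 CPM in those libraries. Its oligodendrocyte sum was 42972 CPM, against 9555 to 15013 CPM. The VTA medians of these sums were 297 and 36835 CPM. All 3 marker sums and both subunit levels lay within the range of the VTA libraries.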

How the results depend on the processing

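All region calls of the 4 genes kept their direction and side under other size factors, DESeq2, no count filter, all mapped libraries, batch as a covariate and without female VTA NIC 2. With the replicate block (rat), the Chrna3 differences were 2.56, 3.05 and 0.49, and no region call changed. Chrna1 in NAc core against shell passed with a minimum of 10 counts in every library (-0.17, adjusted p = 0.0436) and without rat male 16 (-0.19, adjusted p = 0.0293). That minimum left Chrnb4 and Chrna3 without a value in most NAc comparisons. With batch as a covariate the differences that had an unadjusted p under 0.05 lost it: Chrna1 in female NAc core (-0.53), Chrnb4 in female NAc shell (0.40), the Chrna1 interaction (0.15) and the Chrnb4 interaction, which reversed (0.16). Leaving out 1 library each gave -0.55 to -0.40 for Chrna1 in female NAc core, 0.86 (without NIC rat 1) to 1.38 for Chrnb4 in female NAc shell, 0.44 to 0.59 for the Chrna1 interaction, which lost the threshold without male NIC rat 16 or female NIC rat 8, and -1.89 to -1.36 for the Chrnb4 interaction. Chrna3 gained an unadjusted p under 0.05 in male NAc core without NIC rat 11 (-0.50), in male NAc shell without SAL rat 1 (0.73) and in female NAc shell without SAL rat 11 (0.80). Between sexes in NAc core, Chrnb4 passed with all mapped libraries (-1.05, adjusted p = 0.0458) and Chrnb2 without female NIC rat 5 (0.20, adjusted p = 0.0420). With all mapped libraries the Chrna1 interaction was 0.45 and lost its unadjusted p under 0.05. In NAc core that setting adds only female NAc core NIC 1, whose dopaminergic, striatal and oligodendrocyte marker sums lay within the VTA range. On CPM the exact permutation differences of female NAc shell were 0.361 CPM for Chrna3 (p = 0.0628) and 0.568 CPM for Chrnb4 (p = 0.0547). By rank, Chrna3 with Chrnb4 in VTA (0.41) and Chrnb2 with Chrna1 in VTA (-0.43) and NAc core (-0.46) no longer passed, nor did the last with all mapped libraries (-0.34). Counts of genes at an unadjusted p under 0.05 moved over 1.5 times with batch as a covariate in male NAc shell (415 to 2013), female VTA (1559 to 295), female NAc shell (1709 to 629) and the VTA interaction (1853 to 462), with 1 fit of all groups in male NAc shell (743), and with 1 library left out in male VTA (949, up to 1554), male NAc core (1660, down to 1046) and male NAc shell (up to 831). Adjusted calls of NIC against SAL, 0 in the 6 comparisons, were 1 in male NAc core with batch as a covariate and up to 1 in female NAc core and 3 in female NAc shell with 1 library left out. Adjusted calls between sexes moved from 393 to 10 in VTA and from 3543 to 8 in NAc shell with batch; in VTA they were 767 by DESeq2, 260 without female VTA NIC 2 and 239 to 609 with 1 library left out. The sex comparison of NAc core with batch could not be fitted. Other settings changed the sign of uncalled values only. The cause was not tested. Counts under 10 limit Chrnb4, and in part Chrna3, in the NAc.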
